A study of Mus musculus with 18 samples.

Results

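The genes described here make, carry, receive or restrain Wnt signals in sorted thyroid cells of the mouse. They are 45 genes whose name on the array belongs to the Wnt, Frizzled (Fzd), secreted Frizzled-related protein (Sfrp) or Dickkopf (Dkk) families, or is Wif1, Frzb, Lrp5, Lrp6, Lef1, Tcf7, Axin2 or Porcn, out of 27962 gene names. They hold 19 ligands, 10 Frizzled receptors, 2 co-receptors, 6 secreted antagonists that bind the ligand, 4 Dickkopf genes, and Porcn, Axin2, Lef1 and Tcf7. Of these, 37 passed the filter on dim probes, which asks for a signal well above background on at least 3 of the 18 arrays. Expression was compared in 4 groups of samples: side population after partial thyroidectomy (TSP, 6 arrays), side population of control glands (CSP, 6 arrays), main population after partial thyroidectomy (TMP, 3 arrays) and main population of control glands (CMP, 3 arrays). The side population is the small fraction of cells that pumps out the DNA dye Hoechst and loses this ability with verapamil, a blocker of efflux pumps; the main population is all other sorted cells. All 4 groups came from thyroids of C57BL/6 mice of both sexes, and all cells had been freed with enzymes and kept in culture for 2 days before staining and sorting, so neither population was measured directly after dissociation. No ages, numbers of animals per sample or time after surgery are given in the labels. Every array carried the sample in Cy5 beside a common Cy3 reference RNA from a pool of Swiss Webster mouse tissues, and every level below is a log2 ratio of sample over that reference, so a level of 0 equals the reference and levels of different genes are not compared.

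Wnt ligands are secreted glycoproteins that Porcn, an acyltransferase of the endoplasmic reticulum, loads with a lipid before they leave the cell. In the canonical branch they bind a Frizzled receptor together with Lrp5 or Lrp6, which stops the destruction of beta-catenin, and beta-catenin then acts in the nucleus with Lef1, Tcf7 and related factors. Axin2 is part of the destruction complex and is itself switched on by the pathway, which makes it a feedback inhibitor and a common readout. Sfrp proteins, Frzb and Wif1 capture ligands outside the cell, while the Dickkopf proteins Dkk1, Dkk2 and Dkk4 bind Lrp5 and Lrp6. Other ligands, Wnt5a and Wnt11 among them, mostly act without beta-catenin, through cell polarity and calcium.

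A pair of arrays went against the label of their group. Over 19982 genes, the median correlation of TSP 1 and TSP 2 was 0.95 (0.89 to 0.96) with arrays of the main population but 0.69 (0.67 to 0.77) with the remaining arrays of the side population, and those remaining arrays had 0.68 with the main population. Over the 37 Wnt genes alone the values were 0.97 and 0.68. The pair was kept under its label, and each count involving the side population is given with and without them. Of the 5 slides, slide 1 carried TSP 1 and TSP 2 together with CSP 1 and CSP 2, slide 4 is the only one that held both CSP and CMP, and slide 5 the only one that held both TSP and TMP. Each of slides 4 and 5 carried 2 side population arrays and a single array of the main population group compared, so differences within them are given as values with no p. The share of spots well above background per array was 38.8% to 72%. Markers of the follicular cell, the hormone-making cell of the thyroid, were seen in all groups, with Tg well above background on all 18 arrays, while Foxe1 and Tshr were so on 1 and 2 of the 6 CSP arrays.

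The promoters of Wnt2, Dkk2 and Axin2 are printed because Wnt2 and Dkk2 had the largest rises in the control side population and Axin2, which rose there too, is the common readout of the pathway. Each stretch runs from 250 bases before to 50 bases after the start of transcription, 5′ to 3′ on the strand of the gene, from RefSeq (GRCm38.p6). Capitals mark CTTTG, the core of the letters to which Lef1 and Tcf7 bind (or its complement CAAAG), and the GC box GGGCGG (or CCGCCC).
Wnt2, chr6:18030396-18030695, minus strand: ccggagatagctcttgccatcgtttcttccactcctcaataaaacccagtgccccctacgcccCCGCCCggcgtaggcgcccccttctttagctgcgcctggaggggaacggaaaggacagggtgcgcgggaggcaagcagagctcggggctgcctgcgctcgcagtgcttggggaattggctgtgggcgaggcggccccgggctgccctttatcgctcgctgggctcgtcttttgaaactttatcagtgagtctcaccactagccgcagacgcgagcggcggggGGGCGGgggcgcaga
Dkk2, chr3:132085042-132085341, plus strand: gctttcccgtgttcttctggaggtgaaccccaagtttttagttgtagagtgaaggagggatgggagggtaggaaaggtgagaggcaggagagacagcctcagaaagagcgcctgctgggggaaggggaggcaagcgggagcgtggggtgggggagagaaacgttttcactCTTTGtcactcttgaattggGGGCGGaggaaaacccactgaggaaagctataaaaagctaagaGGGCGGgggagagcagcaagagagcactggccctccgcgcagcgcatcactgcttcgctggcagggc
Axin2, chr11:108920099-108920398, plus strand: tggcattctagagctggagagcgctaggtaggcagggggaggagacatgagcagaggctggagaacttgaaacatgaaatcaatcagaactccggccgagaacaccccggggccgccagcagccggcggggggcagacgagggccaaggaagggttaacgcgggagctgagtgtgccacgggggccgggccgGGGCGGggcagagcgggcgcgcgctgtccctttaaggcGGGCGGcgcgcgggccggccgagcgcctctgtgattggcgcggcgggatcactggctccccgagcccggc
Each of the 3 windows holds 2 GC boxes, and the window of Dkk2 alone holds a CTTTG core. None of the 3 holds the longer TCF/LEF letters CTTTGAT (or ATCAAAG; the core lies within them). The search covered both strands. Of 32851 mouse promoters of this length, 3.73% hold CTTTGAT, 53.9% the core and 35.7% a GC box. RefSeq windows were at hand for 30 of the 45 Wnt genes, 37 windows in all, of which 2 (Wnt11 and 1 start of Wnt5b) hold CTTTGAT, 19 the core and 29 a GC box. A match is a description of letters and not a binding site.

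Related ligands share stretches of coding sequence, so the probes of Wnt4 and Wnt5a are shown as an example of how far 2 ligands of the family differ in the stretch that the array reads. Both are 60 bases long with coordinates of build mm7 that span more than the length of the probe, so each aligns in more than 1 block. Capitals mark the bases that are identical when the probes are aligned without gaps.
Wnt4, chr4:136674216-136674784: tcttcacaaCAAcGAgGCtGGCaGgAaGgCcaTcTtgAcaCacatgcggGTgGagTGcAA
Wnt5a, chr14:25948244-25952114: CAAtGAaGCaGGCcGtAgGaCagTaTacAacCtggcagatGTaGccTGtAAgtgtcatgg
They match at 25 of 51 aligned bases, or 49.0%. Probes of the other members were not compared in this way, and binding of the RNA of one member to the probe of another was not tested.

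**Figure D1:**
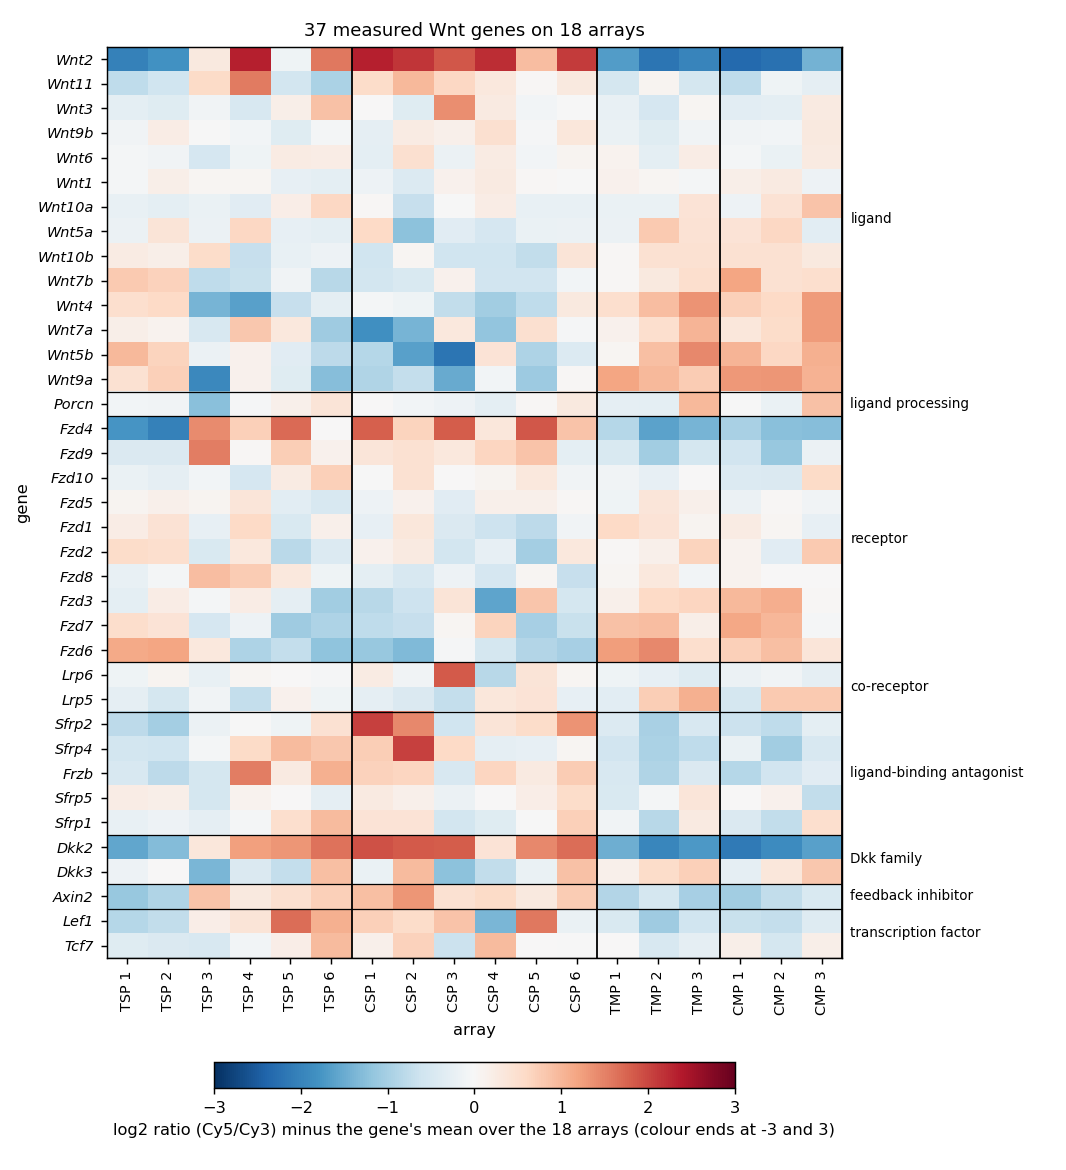
Log2 ratio of each of the 37 measured Wnt genes (rows, grouped by role) on each of the 18 arrays (columns), minus the mean of the gene over all arrays; red is above and blue below that mean. Wnt2, Fzd4 and Dkk2 are high on the CSP arrays and on TSP 3 to TSP 6 for most of them, and low on TSP 1, TSP 2 and the 6 main population arrays.

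The first comparison asks how the side population of control glands differs from the main population of control glands; the labels do not tie the samples of the 2 groups to the same animals. In CSP, 9 of 37 Wnt genes (24.3%) changed against CMP, where 14.8% of all 20455 genes tested did (limma, Benjamini-Hochberg adjusted p under 0.05). Higher in CSP were the ligand Wnt2, the Dickkopf gene Dkk2, the receptor Fzd4, the feedback inhibitor Axin2 and the antagonist Sfrp2 (5 genes, 15.1-fold to 2.69-fold; 7.62% of all genes rose). Lower were the ligands Wnt9a, Wnt5b and Wnt7b and the receptor Fzd6 (4 genes, 3.82-fold to 2.10-fold; 7.19% of all genes fell). There was no shift of the family in one direction: 19 of 37 differences were positive, and their median was 0.05 on the log2 scale against 0.06 over all genes. Without TSP 1 and TSP 2, which enter this comparison only through the shared estimate of spread, 12 of 37 passed, 6 up and 6 down, against 19.2% of all genes (10.2% up and 9% down), and the 3 added genes were Fzd9, Fzd7 and Wnt4.

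The ligands moved both ways: of 14 measured, 1 rose and 3 fell in CSP. Wnt2, a canonical ligand known for its role in lung development, ranged from 0.6 (lowest, CSP 5) through 1.79 (median) to 2.0 (highest) in CSP, against -2.65, -2.57 and -1.73 in CMP. All 6 CSP arrays lay above the reference RNA and all 3 CMP arrays below it. The difference was 3.92 ± 0.707 (log2, SE), or 15.1-fold, with a limma adjusted p of 0.00796, and it stayed under 0.05 when any single CMP array was left out (0.0244 to 0.0485). Within slide 4 the difference was 3.76. Wnt9a, a ligand known from joint formation, ranged from 0.11 through 0.82 to 1.66 in CSP, against 2.92, 2.96 and 2.66 in CMP. It was above the reference in both populations, and no CSP array reached a CMP array. It fell by 1.93 ± 0.469 in CSP (3.82-fold lower, limma adjusted p 0.0122), with an adjusted p of 0.0539 without CMP 1 and 0.0589 without CMP 2, and a difference of -1.87 within slide 4. A second probe of Wnt9a was not well above background on any array.

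Wnt5b, a relative of Wnt5a that mostly acts outside the beta-catenin branch, ranged from -1.11 through 0.17 to 1.49 in CSP, against 2.08, 1.69 and 2.13 in CMP. The CSP arrays were widely spread, with CSP 4 close to the CMP arrays but still below them. Wnt5b fell by 1.83 ± 0.473 (3.56-fold lower, limma adjusted p 0.0158), its second probe fell by 1.44, and the adjusted p was 0.0673, 0.054 and 0.056 without CMP 1, CMP 2 and CMP 3. Within slide 4 the difference was -1.29. Wnt7b, a canonical ligand of lung and kidney epithelium, ranged from 0.31 through 0.38 to 1.02 in CSP, where 4 of 6 arrays were well above background, against 2.07, 1.35 and 1.40 in CMP. Its groups did not overlap. The fall of 1.07 ± 0.347 (2.10-fold lower) had a limma adjusted p of 0.0447 and was the weakest of the 9. Leaving out CSP 1, CSP 2, CSP 4 or CSP 5 gave 0.0717 to 0.0757. Leaving out CMP 1 gave 0.219, CMP 2 gave 0.0871, CMP 3 gave 0.0729, TSP 5 gave 0.052, TMP 1 gave 0.0532, TMP 2 gave 0.0563 and TMP 3 gave 0.0513. The adjusted p was 0.0633 with Agilent's processed signals and 0.066 with median centring in place of loess. It was 0.0525 with scaling between arrays and 0.0565 without the filter on dim probes.

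Wnt4, a ligand needed for kidney tubules and the female reproductive tract, ranged from -0.61 through -0.01 to 0.72 in CSP, against 1.13, 1.01 and 1.69 in CMP. Its groups did not overlap, yet its difference of -1.26 missed the threshold with all arrays (limma adjusted p 0.0606) and passed it without TSP 1 and TSP 2 (0.0133). Wnt11, known from cell movements of the early embryo, was above all CMP arrays on every CSP array (2.25 to 3.18 in CSP, against 1.45 to 2.09 in CMP), with a difference of 0.84 that did not pass (limma adjusted p 0.198). In all, 5 of the 37 Wnt genes lay wholly above CMP in CSP and 5 wholly below, where 11.1% and 9.12% of all genes did. The other ligands that did not pass were Wnt7a (difference -1.33), Wnt10b (-0.75), Wnt5a (-0.55), Wnt10a (-0.53), Wnt1 (-0.12), Wnt6 (0.05), Wnt9b (0.13) and Wnt3 (0.32). Wnt5a, often named beside Wnt5b, ranged from -0.97 to 0.86 in CSP, against -0.04 to 0.88 in CMP, so its groups overlapped. Porcn, which lipidates all ligands, differed by -0.25. The ligands Wnt16, Wnt2b, Wnt3a, Wnt8a and Wnt8b, the antagonist Wif1, and Dkk1 and Dkk4 were not well above background on enough arrays to be tested.

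Among the 10 receptors, 1 rose and 1 fell. Fzd4, a receptor for Wnts and for Norrin that is known from the blood vessels of the retina, ranged from 1.71 through 2.69 to 3.23 in CSP, against 0.40, 0.12 and 0.09 in CMP. Every CSP array was at least 1 log2 unit above every CMP array. The difference was 2.38 ± 0.662, or 5.22-fold (limma adjusted p 0.0224); the adjusted p was 0.0673, 0.0833 and 0.0664 without CMP 1, CMP 2 and CMP 3. Within slide 4 the difference was 2.61. Fzd6, a receptor of the planar polarity branch known from hair orientation, ranged from -0.26 through 0.13 to 1.03 in CSP, against 1.78, 1.98 and 1.44 in CMP. The groups did not overlap, and CSP 3 was the closest to CMP. Fzd6 fell by 1.49 ± 0.471 (2.80-fold lower, limma adjusted p 0.0402), and the difference within slide 4 was -1.85. Its adjusted p was 0.0707, 0.0743, 0.0607 and 0.0581 without CSP 1, CSP 2, CSP 5 and CSP 6, and 0.123, 0.147 and 0.0674 without CMP 1, CMP 2 and CMP 3. It was 0.0501 with Agilent's processed signals, 0.0571 with scaling between arrays and 0.0565 without the filter on dim probes.

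Fzd7, a receptor of epithelial stem cells in the intestine, ranged from -0.05 to 1.6 in CSP, against 2.11, 1.94 and 0.90 in CMP. CMP 3 lay inside the range of CSP. Its difference of -1.11 had a limma adjusted p of 0.0767 with all arrays and 0.0413 without TSP 1 and TSP 2, and was -1.83 within slide 4; its second probe differed by -0.48. Fzd9 ranged from -0.34 to 0.80 in CSP, against -0.62, -1.19 and -0.23 in CMP, a difference of 1.02 with a limma adjusted p of 0.0715, and 0.0364 without TSP 1 and TSP 2. Here only CSP 6 overlapped with CMP. The other receptors had differences from -1.09 (Fzd3) to 0.22 (Fzd10). For Fzd2, Fzd5, Fzd8 and Fzd10 a second, dimmer probe differed in sign from the one used (for Fzd5 -0.03 against 0.08). The co-receptors Lrp5 and Lrp6 differed by -0.49 and 0.46 and did not pass.

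**Figure D2:**
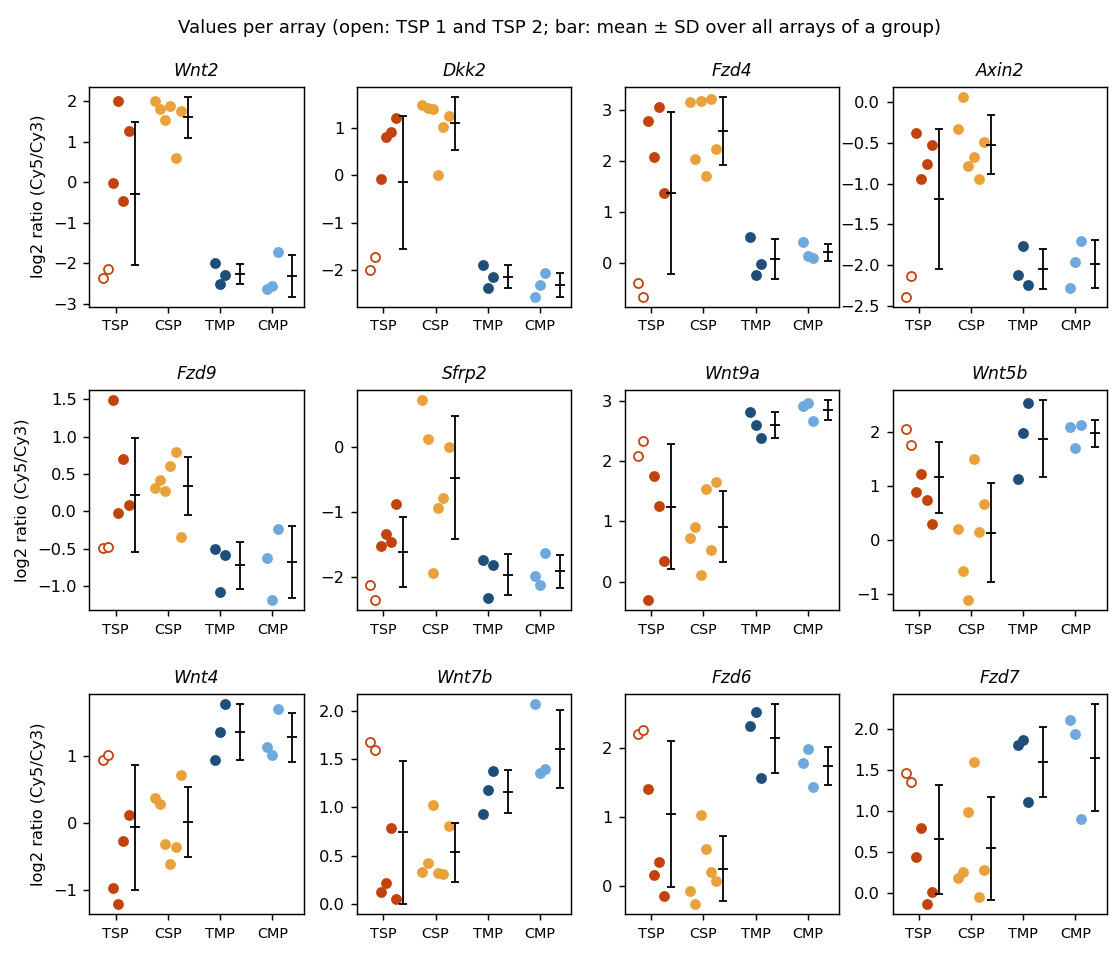
Log2 ratio (vertical axes) of the Wnt genes with the clearest differences in each of the 4 groups (horizontal axes); points are arrays, open points are TSP 1 and TSP 2, and bars are the mean ± SD over all arrays of a group. For Wnt2, Dkk2 and Fzd4 the open points lie at the level of TMP and CMP and apart from the other TSP arrays.

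Of 5 measured antagonists that bind the ligand, 1 rose. Sfrp2, a secreted relative of the Frizzled receptors made by many fibroblasts, ranged from -1.93 through -0.4 to 0.71 in CSP, against -1.98, -2.11 and -1.63 in CMP. CSP 3 lay within the CMP range and the other 5 arrays above it. Sfrp2 rose by 1.43 ± 0.435, or 2.69-fold (limma adjusted p 0.0337); the adjusted p was 0.0625, 0.0647 and 0.055 without CSP 1, CSP 2 and CSP 6, 0.113, 0.127 and 0.0595 without CMP 1, CMP 2 and CMP 3, and the difference within slide 4 was 1.71. Sfrp2 also had a limma adjusted p of 0.113 with median centring in place of loess, and 0.0547 in a fit of CSP and CMP alone. Sfrp4 (difference 1.07), Frzb (1.01), Sfrp5 (0.37) and Sfrp1 (0.32) did not pass. Dkk2, which binds Lrp5 and Lrp6 and can inhibit or weakly activate the pathway depending on the cell, ranged from -0.01 (lowest, CSP 4) through 1.31 to 1.48 in CSP, against -2.56, -2.31 and -2.07 in CMP. All CSP arrays were about 2 log2 units or more above CMP, where 2 of 3 arrays were well above background. Dkk2 rose by 3.40 ± 0.581, or 10.6-fold (limma adjusted p 0.00796), with 0.0244 to 0.0485 when a CMP array was left out and a difference of 3.44 within slide 4. Wnt2 and Dkk2 were the only members called in all 48 alternatives tried. Dkk3, a more distant relative, differed by -0.38.

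Axin2 ranged from -0.94 through -0.58 to 0.07 in CSP, where 5 of 6 arrays were well above background, against -2.29, -1.97 and -1.70 in CMP, where 1 of 3 was. The groups did not overlap. Axin2 rose by 1.46 ± 0.384, or 2.76-fold as measured (limma adjusted p 0.0171), a fold that rests on a CMP level near background; the difference within slide 4 was 1.25. The adjusted p was 0.0883 without CMP 1, 0.0659 without CMP 2 and 0.0577 with median centring in place of loess. Lef1, the factor through which beta-catenin acts in many tissues, was far below the reference RNA in both populations: it ranged from -4.51 through -2.52 to -1.56 in CSP, against -3.81, -3.87 and -3.53 in CMP. CSP 4 was below all CMP arrays and the other 5 above them. Its difference of 0.95 did not pass (limma adjusted p 0.275), nor did that of Tcf7 (0.25).

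**Figure D3:**
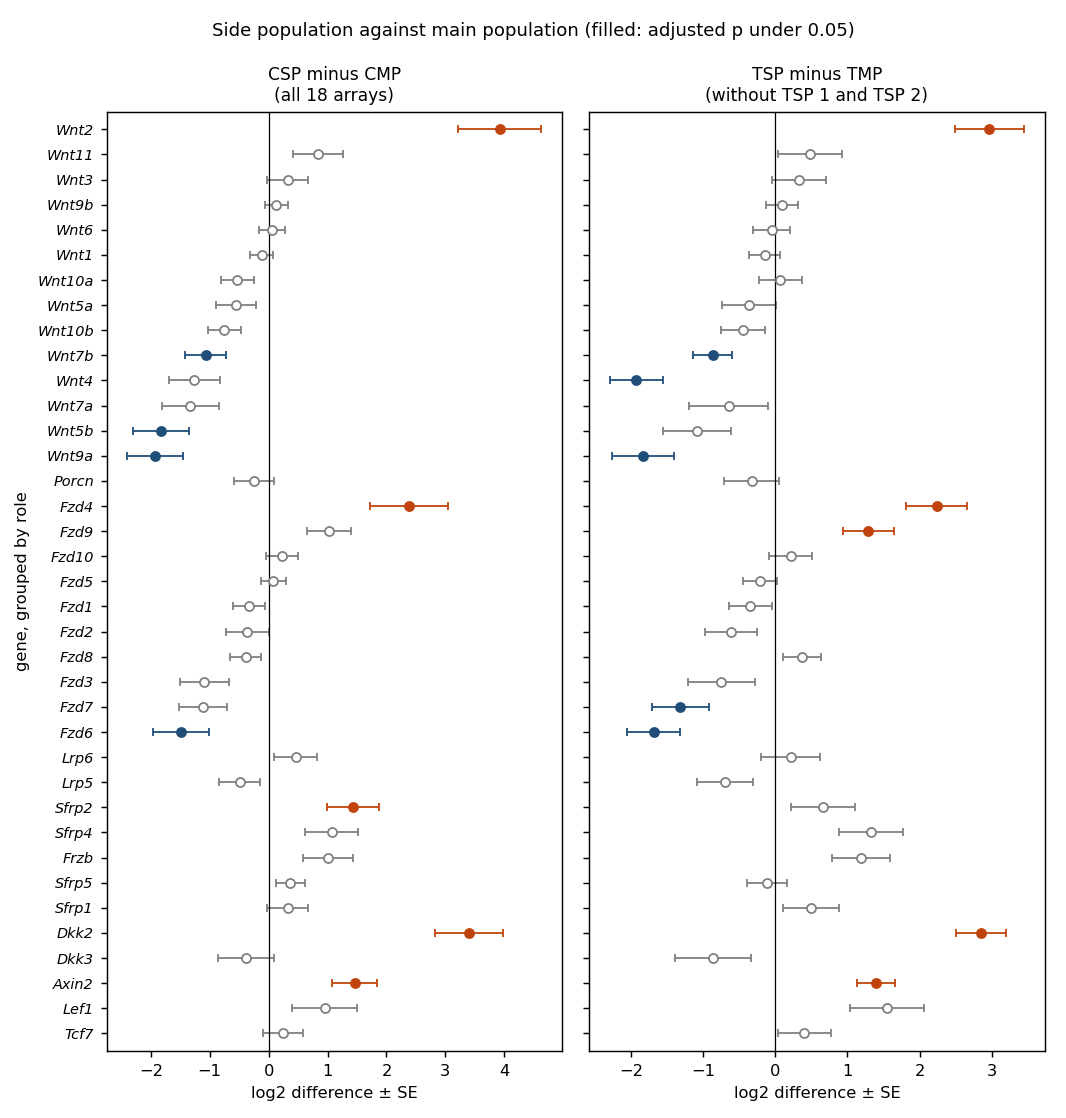
Log2 difference ± SE (horizontal axis) of each measured Wnt gene (rows, grouped by role) between side and main population, in control glands and after surgery; filled points passed an adjusted p of 0.05. In control glands 5 genes are filled to the right of 0 and 4 to the left.

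Markers of other cell types differed between the same groups. Of 12 endothelial markers 11 were higher in CSP than in CMP, and their mean level ranged over the arrays from 0.62 to 2.46 in CSP, against -2.04 to -1.4 in CMP. Of 12 fibroblast markers 10 were higher (array means of -1.51 to 0.96 in CSP, against -3.69 to -3.05 in CMP), and 6 were with median centring or with scaling between arrays. Of 12 epithelial markers all 12 were lower (-1.26 to 2.11 in CSP, against 3.22 to 3.63 in CMP), as were 9 of 14 follicular markers (-0.43 to 1.08 in CSP, against 1.9 to 2.31 in CMP). Of 8 smooth muscle and pericyte markers 2 were higher and 1 lower (-0.58 to 0.35 in CSP, against -1.68 to -0.87 in CMP). The remaining lists gave 1 up and 2 down of 10 macrophage and pan-leukocyte markers, 1 up of 7 C cell and parathyroid markers, and 0 of 7 Schwann and neural markers. The part of these markers in the differences of the Wnt genes was not tested. In RNA of a whole sort a larger number of cells of a type and more RNA per cell cannot be told apart.

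Among the side population arrays, the level of Fzd4 varied with the endothelial markers. Over the 10 side population arrays without TSP 1 and TSP 2, the level of Fzd4 and the mean of the 12 endothelial markers had a Pearson r of 0.86 and a Spearman rho of 0.83, and r was 0.82 without CSP 4 and CSP 5, the arrays farthest from the median of the markers. CSP 5 had 3.23 for Fzd4 and 2.46 for the markers, while CSP 4 had 1.71 and 0.62. With the fibroblast markers r was -0.74 (rho -0.75) and with the smooth muscle and pericyte markers -0.86 (rho -0.85). Of all relations computed, the largest in size was that of Wnt11 with the Schwann and neural markers (r -0.95, rho -0.95, and -0.86 without TSP 5 and TSP 6). The relations of Fzd4 were picked after their values were seen, among 112 (14 genes and 8 marker lists), so they carry no p; arrays of a slide share a hybridisation and a background, and a slide holds too few side population arrays for a value of its own.

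**Figure D4:**
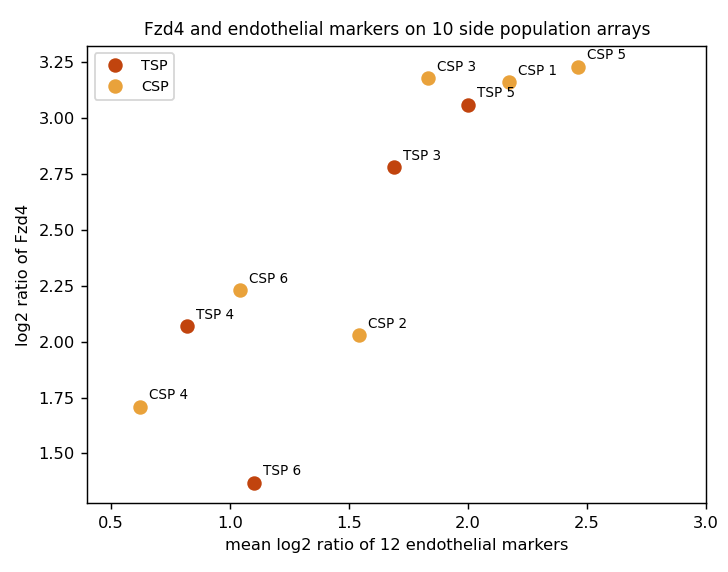
Log2 ratio of Fzd4 (vertical axis) against the mean log2 ratio of 12 endothelial markers (horizontal axis) on TSP 3 to TSP 6 and on the 6 CSP arrays; each point is an array. CSP 5 is highest on both axes, CSP 4 has the lowest marker mean, and TSP 6 has the lowest Fzd4 level (1.37).

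Other genes of the pathway were read from 3 lists, beside 14.8% of all genes that changed (7.62% up and 7.19% down). Of 49 measured genes of the canonical pathway outside the family, 12 changed in CSP, 4 up and 8 down (24.5%), with a median difference of -0.22. Higher were Rspo1 (2.28 ± 0.502, limma adjusted p 0.00929), a secreted R-spondin that strengthens Wnt signals, Serpinf1 (2.22 ± 0.614, 0.0222), Nkd2, which binds Dishevelled (1.93 ± 0.461, 0.0115), and the membrane inhibitor Apcdd1 (1.43 ± 0.430, 0.0318). Lower were the R-spondin receptors Lgr6 (-2.93, limma adjusted p 0.0153, well above background on 1 of 6 CSP arrays) and Lgr4 (-2.0, 0.021), Rnf43, a ligase that removes Frizzled from the surface (-2.07, 0.0103), and Dact2 (-2.15, 0.00796). Rspo3 (1.12, limma adjusted p 0.0555) and the receptor Lgr5 (0.64, 0.132) did not pass.

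Of 22 genes of the non-canonical and planar polarity branch, 6 changed, 1 up and 5 down (27.3%), with a median of -0.03. Prickle2 rose (2.23, 4.70-fold, limma adjusted p 0.00796), while the polarity cadherins Celsr2 (-2.84, 7.16-fold lower, 0.0117) and Celsr1 (-2.61, 6.09-fold lower, 0.0136), Scrib (-1.48, 0.0227) and the formin Daam1 (-1.12, 0.0215) fell. Of 22 measured genes that have been reported as targets of beta-catenin in some tissue, 9 changed, 8 up and 1 down (40.9%), with a median of 0.95. The largest rises were Sox17 (4.28, 19.5-fold, limma adjusted p 0.012), a transcription factor of endoderm and of arterial endothelium, Twist1 (3.65, 12.5-fold, 0.00796), a factor of mesenchymal cells, Tnfrsf19 (3.10, 8.55-fold, 0.00796) and Fst (2.02, 4.07-fold, 0.0291), a secreted binder of activins. Ccnd1, the cell cycle regulator cyclin D1, fell (-2.88, 7.39-fold lower, limma adjusted p 0.00796). With median centring in place of loess, the targets gave 3 up and 2 down and the other canonical genes 3 up and 13 down, where 12.9% of all genes changed. Without TSP 1 and TSP 2 the 3 lists gave 8 up and 10 down, 2 up and 5 down, and 10 up and 2 down, where 19.2% of all genes changed.

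**Figure D5:**
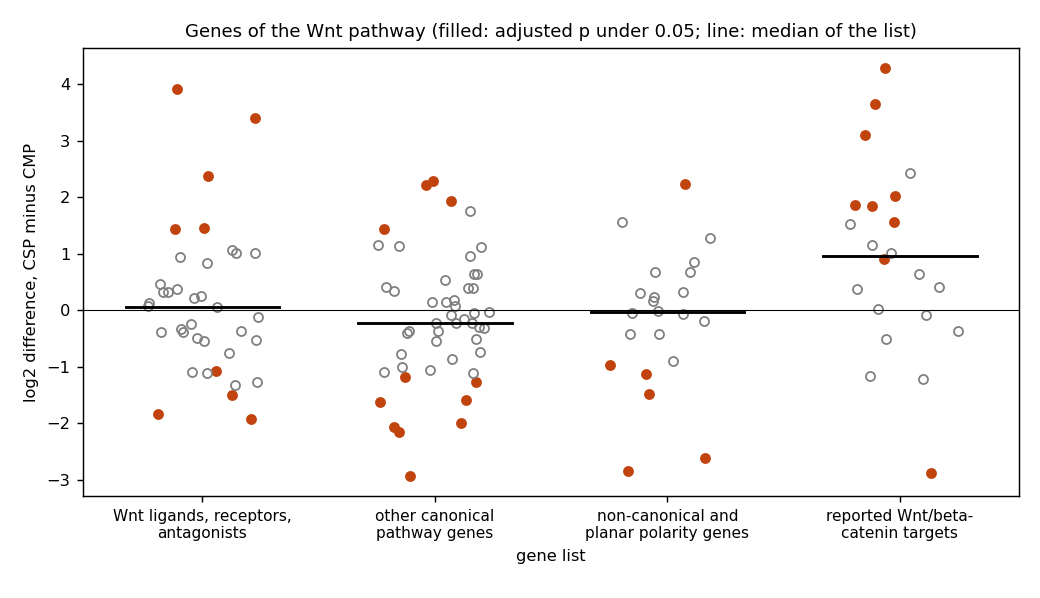
Log2 difference between CSP and CMP (vertical axis) of the Wnt genes and of 3 further lists of pathway genes (horizontal axis); each point is a gene, filled where it passed an adjusted p of 0.05, and a line marks the median of the list. The medians run from -0.22 for the other canonical genes to 0.95 for the reported targets.

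The second comparison asks the same of glands after partial thyroidectomy. With all arrays, no Wnt gene and no other gene passed between TSP and TMP (0% of 20455 genes; limma), although 10 of the 37 Wnt genes and 2798 genes in all had an unadjusted p under 0.05. Without TSP 1 and TSP 2, 10 of 37 passed (27.0%), 5 up and 5 down, where 14.7% of all genes did (7.69% up and 7% down). These arrays were set apart by their likeness to the main population, so leaving them out favours calls between TSP and TMP, and all calls of this comparison given below rest on that choice except those where a single TSP array was left out. Up were Wnt2, Dkk2, Fzd4, Axin2 and Fzd9, and down were Wnt4, Wnt9a, Fzd6, Fzd7 and Wnt7b. All 10 also passed between CSP and CMP without these arrays, as 10 of the 12 called there. The overlap over all genes was not counted, and both comparisons came from the same fit. The match is therefore not read as a trait of the Wnt genes. Wnt5b and Sfrp2, the other 2 of those 12, did not pass after surgery. Groups did not overlap for 8 Wnt genes above TMP and 5 below it without the pair, where 12.5% and 11.3% of all genes were so placed, and for 1 above and 1 below with all arrays (1.45% and 2.49%).

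Wnt2 had levels of -0.02, 2.02, -0.46 and 1.27 in TSP 3 to TSP 6 and -2.36 and -2.14 in TSP 1 and TSP 2, against -2.0, -2.51 and -2.30 in TMP. TSP 1 and TSP 2 lay in the range of TMP and the other 4 above it. Without the pair the difference was 2.97 ± 0.479, or 7.85-fold (limma adjusted p 0.00034). Wnt4 had -0.96, -1.20, -0.27 and 0.12 in TSP 3 to TSP 6 and 0.93 and 1.01 in TSP 1 and TSP 2, against 0.93, 1.35 and 1.77 in TMP. Here too TSP 1 and TSP 2 stood with TMP. Without them Wnt4 fell by 1.93 ± 0.365 (3.81-fold lower, limma adjusted p 0.0013), also when TSP 2 alone was left out (adjusted p 0.0454). Within slide 5, which held TSP 5, TSP 6 and TMP 3, the difference was -1.85. Wnt9a had -0.31, 1.76, 1.26 and 0.34 in TSP 3 to TSP 6 and 2.08 and 2.33 in TSP 1 and TSP 2, against 2.81, 2.60 and 2.39 in TMP. All TSP arrays were below all TMP arrays. Without TSP 1 and TSP 2 it fell by 1.84 ± 0.427 (3.57-fold lower, limma adjusted p 0.00617, and 0.0768 with slide as a block). Wnt7b had 0.12, 0.22, 0.79 and 0.05 in TSP 3 to TSP 6 and 1.68 and 1.59 in TSP 1 and TSP 2, against 0.93, 1.18 and 1.38 in TMP. TSP 1 and TSP 2 were above all 3 TMP arrays. Without them Wnt7b fell by 0.87 ± 0.269 (limma adjusted p 0.0362, and 0.0969 with slide as a block); a further array left out gave 0.0868, 0.0749 and 0.0788 for TSP 3, TSP 4 and TSP 6, and 0.0511, 0.105 and 0.123 for TMP 1, TMP 2 and TMP 3.

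Fzd4 had 2.78, 2.07, 3.06 and 1.37 in TSP 3 to TSP 6 and -0.40 and -0.67 in TSP 1 and TSP 2, against 0.51, -0.25 and -0.03 in TMP. Without TSP 1 and TSP 2, which were below all TMP arrays, it rose by 2.24 ± 0.422, or 4.73-fold (limma adjusted p 0.00125). Fzd9 had 1.49, -0.02, 0.70 and 0.09 in TSP 3 to TSP 6 and -0.49 and -0.47 in TSP 1 and TSP 2, against -0.50, -1.08 and -0.58 in TMP. TSP 3 was the highest array of all groups for Fzd9. The rise of 1.29 ± 0.357 without TSP 1 and TSP 2 (2.44-fold as measured, with 1 of 3 TMP arrays well above background; limma adjusted p 0.0196) had an adjusted p of 0.0627 without TSP 3 as well, 0.109 without TMP 2 and 0.109 with slide as a block. Fzd6 had 1.40, 0.16, 0.35 and -0.14 in TSP 3 to TSP 6 and 2.20 and 2.26 in TSP 1 and TSP 2, against 2.32, 2.52 and 1.57 in TMP, and fell by 1.69 ± 0.367 without the pair (3.24-fold lower, limma adjusted p 0.00377). TSP 3 was the array nearest to TMP. Fzd7 had 0.44, 0.80, -0.13 and 0.01 in TSP 3 to TSP 6 and 1.46 and 1.35 in TSP 1 and TSP 2, against 1.81, 1.87 and 1.11 in TMP. Its groups did not overlap without TSP 1 and TSP 2, and it fell by 1.32 ± 0.394 (2.49-fold lower, limma adjusted p 0.0307); a further array left out gave 0.0855 and 0.0653 for TSP 5 and TSP 6, and 0.117 and 0.129 for TMP 1 and TMP 2.

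Dkk2 had -0.08, 0.80, 0.90 and 1.21 in TSP 3 to TSP 6 and -2.0 and -1.73 in TSP 1 and TSP 2, against -1.90, -2.38 and -2.15 in TMP. The 4 arrays TSP 3 to TSP 6 lay well above the other 5. Dkk2 rose by 2.85 ± 0.350 without TSP 1 and TSP 2, or 7.21-fold as measured (limma adjusted p 2.9e-05), with 1 of 3 TMP arrays well above background, and the difference within slide 5 was 3.20. It also passed when TSP 1 alone (0.043) or TSP 2 alone (0.0395) was left out. Axin2 had -0.38, -0.94, -0.76 and -0.53 in TSP 3 to TSP 6 and -2.39 and -2.14 in TSP 1 and TSP 2, against -2.12, -1.77 and -2.25 in TMP, where it was not well above background on any array. It was therefore at least 1.99-fold higher without TSP 1 and TSP 2 (the mean of the brighter group against the higher, on each TMP array, of the dim signal and the lowest signal well above background; limma adjusted p 0.00123). Lef1 (1.55, limma adjusted p 0.0516), Sfrp4 (1.33, 0.053) and Frzb (1.19, 0.0557) came close to the threshold without TSP 1 and TSP 2, and Sfrp2 did not (0.66, 0.401). The other canonical genes gave 4 up and 8 down of 49 there, the non-canonical genes 2 up and 4 down of 22, and the reported targets 8 up and 3 down of 22, beside 14.7% of all genes; all 3 lists gave 0 with all arrays. The marker lists moved with TSP 1 and TSP 2 as well: the mean of the endothelial markers ranged from -1.79 to 2 over the TSP arrays, against -1.92 to -1.34 in TMP, and that of the epithelial markers from -0.05 to 3.87, against 3.2 to 3.77. Their part in these results was not tested.

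The third comparison concerns surgery itself, within each population. Between TSP and CSP no Wnt gene passed, with or without TSP 1 and TSP 2 (0% of all genes; limma). With all arrays 7 of 37 had an unadjusted p under 0.05, where 1879 of 20455 genes did. These were Wnt5b (1.02), Fzd8 (0.61), Wnt2 (-1.88, p 0.00422 in the limma fit), Dkk2 (-1.24), Fzd4 (-1.22), Sfrp2 (-1.13) and Axin2 (-0.67). The last 5 are the genes higher in CSP than in CMP. Both comparisons use the same CSP arrays, and TSP 1 and TSP 2 resemble the main population. This match is therefore built in to some extent and is not a result on surgery. Without TSP 1 and TSP 2, 3 of 37 had an unadjusted p under 0.05 in the limma fit, where 713 of 20455 genes did. They were Fzd8 (0.82 ± 0.223, p 0.00191), Wnt2 (-0.90, p 0.04) and Sfrp2 (-0.82, p 0.0433), and none passed after adjustment. Fzd8, a Frizzled receptor of the canonical branch, had 1.04, 0.87, 0.42 and -0.03 in TSP 3 to TSP 6 and -0.11 and 0.04 in TSP 1 and TSP 2, against a range of -0.59 to 0.17 with a median of -0.29 in CSP. TSP 3, TSP 4 and TSP 5 were above every CSP array, and its second, dimmer probe differed by -0.11 with all arrays. With slide as a block, Wnt2 alone of the 37 passed with all arrays (-2.21, limma adjusted p 0.049), where 4.62% of all genes did. Without TSP 1 and TSP 2 the same fit gave 0 Wnt genes, where 0.088% of all genes passed. Single slides were compared in a fit that pooled the spread over all arrays. Within slide 1, where TSP 1 and TSP 2 stand against CSP 1 and CSP 2, 10 Wnt genes passed, 3 up and 7 down. Because TSP 1 and TSP 2 resemble the main population, these calls cannot be assigned to surgery. Within slide 3, which held TSP 3, TSP 4, CSP 3 and CSP 4, no Wnt gene passed. Over all genes 20.2% passed within slide 1 and 0.279% within slide 3.

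Between TMP and CMP no Wnt gene passed and none had an unadjusted p under 0.05 (0% of all genes called; limma), where 26 of 20455 genes had one. Differences of the 37 genes ranged from -0.44 (Wnt7b) to 0.40 (Fzd6). The arrays of the same number were hybridised on the same slide in these groups and deviated together. With the replicate number as a block in the limma fit of all arrays, 0 Wnt genes had an unadjusted p under 0.05. A further limma fit with this block held the TMP and CMP arrays alone and was not planned beforehand. In it no Wnt gene passed and 4 had an unadjusted p under 0.05, Fzd6 (0.40, p 0.0272), Wnt10a (-0.38, p 0.0415), Fzd1 (0.34, p 0.0467) and Wnt7b (-0.44, p 0.0481). The number of all genes with such a p in that fit is not given here. The effect of surgery was not found to differ between the populations: the interaction gave 0 calls among the Wnt genes and among all genes (0%), with 0 of 37 at an unadjusted p under 0.05 with all arrays and 1, Fzd8 (0.77, p 0.0476), without TSP 1 and TSP 2. These p-values do not show that the groups were alike.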

How the data were processed

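Gene expression was measured on 18 two-colour arrays (Agilent, 45018 spots, 43379 of them not controls, 41174 probes), with the sample in Cy5 and a common reference in Cy3 and no dye swap. The deposited scanner files give each channel's intensity, per the file headers, and a log10 ratio of processed red over green that the processed signals met within 0.001 on 84.68% of spots. Feature Extraction had version 8.5.1.1 per the submitters' processing notes and 9.5.1.1 per the file headers. The authors' deposited log2 values (33040 probes, 22551 complete) have no stated normalization, and 10 of 18 columns matched their own scanner file best. The TSP 3 column matched a file of another group best (CSP 5, r 0.77, against 0.68 for its own). The TSP 4 column matched TSP 2 best (r 0.91). Arrays are therefore numbered by scanner file, and these values served only as an alternative. Coordinates are of build mm7 per the file headers; 42 of 45 accessions of the Wnt probes matched RefSeq.

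Mean signals were corrected by normexp (offset 50) and normalized by loess in limma 3.58.1 (R 4.3.3 with the data.table package, version 1.17.8). A probe had to be well above background (Cy5) on 3 or more arrays, and the brightest such probe stood for its gene name, which left 20455 genes. One limma fit of 4 group means over all 18 arrays gave 5 contrasts, with Benjamini-Hochberg adjustment over all genes of a contrast, and an adjusted p under 0.05 was a call. The code was tested on simulated data. Genes named with full statistics are all members called with all arrays or, for TSP contrasts, without TSP 1 and TSP 2 (at most 12), and at most 4 per direction of each pathway list. The members and lists were chosen with earlier results of these data known. The design names the samples biological replicates; their source animals are not given in the labels. Same-numbered CMP and TMP arrays deviated together (r 0.67 to 0.81 in 3 of 3 pairs, each pair on 1 slide). They were treated as paired in an alternative, although a shared slide and a shared source cannot be told apart. Of all 21 same-numbered pairs 11 exceeded 0.1 (-0.26 to 0.81). CSP 5 with TSP 5, on different slides, had 0.46, so pairing in the other groups is neither shown nor excluded. Alternatives covered signal correction, scaling, filters, probe averaging, slide and replicate blocks, single slides and left-out arrays. The number of arrays limits the precision. Python 3.11.15, pandas 2.3.3, scipy 1.17.1 and matplotlib 3.10.9 were used.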

Additional observations from a re-analysis of the deposited data

Results flagged for a closer look

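A single array stood far from the others of its group, by Dixon's criterion, in 4 of 74 gene and group combinations examined; chance flags about 1 in 20. Dkk2 was lowest in CSP 4 at -0.01, with the next array at 1.02, and Wnt2 was lowest in CSP 5 at 0.6, with the next at 1.55. Both genes remained above all CMP arrays on these arrays. Porcn was lowest in TSP 3 at -1.91, with the next at -0.76. Wnt3 was highest in CSP 3 at 0.45, with the next at -0.66.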

How the results depend on the processing

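The direction of each of the Wnt genes named with full statistics in the comparisons of side with main population was the same under all alternatives run. Between CSP and CMP, 9 genes passed, and 15 did with slide as a random block, where 26% of all genes did. When 1 array was left out, 2 to 11 passed (2 without CMP 1, 2 without CMP 2 and 5 without CMP 3). Of all genes 5.53%, 2.75% and 10.2% passed without CMP 1, CMP 2 and CMP 3. With the replicate number as a block 4 passed (Wnt2, Dkk2, Wnt5b and Wnt9a), and 1979 of all genes in place of 3029. The labels do not say whether equal numbers pair the samples, in these or other groups. The block changed no call between TMP and CMP, where arrays of equal number shared a slide. Splits of calls were 5 up and 4 down, against 3 and 5 with median centring, 5 and 2 with scaling between arrays or without the filter on dim probes, and 5 and 3 with Agilent's processed signals. Of all genes 14.8% passed in the main fit. The share was 12.9% with median centring, 11.5% with scaling, 9.77% without the filter and 13.3% with Agilent's signals. Leaving out TSP 1, TSP 2 and 1 more array, an alternative chosen after seeing the data, gave 8 to 14 (14 without CSP 3). With only the pair left out 12 passed, where 19.2% of all genes did. Between TSP and TMP, 0 passed. Without TSP 1 and TSP 2, 10 did, where 14.7% of all genes did. With slide as a block as well 10 passed, where 15.7% of all genes did. With 1 more array left out than the pair, 7 to 12 passed. When 1 array alone was left out, 0 to 2 passed (1 without TSP 1, 2 without TSP 2). Between TSP and CSP, 0 passed with all arrays. With slide as a fixed block 1 did, but 0 without TSP 1 and TSP 2, and 10 did within slide 1. Between TMP and CMP and for the interaction, 0 passed under all alternatives run. Over all genes, calls between CSP and CMP numbered 3029, against 563 without CMP 2, 1132 without CMP 1, 5326 with slide as a random block and 5732 with slide as a fixed block. With median centring the median difference of all genes was -0.08 between CSP and CMP (0.06 with loess), 0.24 between TSP and CSP and 0.18 for the interaction (-0.04 for both with loess). The causes were not tested. Slides 1 and 5 had the highest Cy5 background (60 to 92.5, against 42 to 43 elsewhere). Of the 37 Wnt genes, 13 were well above background on all 18 arrays.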

Other observations

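On TSP 6, 3 dim Wnt genes picked after their values were seen lay close to the reference, and they were not alone. Wnt3 had -0.06, Wnt10a -0.05 and Wnt16 -0.07 there, while Wnt3 ranged from -1.42 to -0.76 on the other TSP arrays. Dkk1 had -0.07 on TSP 6. Wif1 was farther from the reference (-0.72) but far above its other TSP arrays (-3.12 to -2.28). None of these genes was well above background on any TSP array. TSP 6 shared slide 5 with TSP 5, where Wnt3 had -0.76 and Wnt10a -0.46. Lrp6 had 1.93 on CSP 3, against -0.75 to 0.47 on the other CSP arrays and -0.19 to -0.03 in CMP.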
